A study of Mus musculus with 16 samples.

Results

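The small leucine-rich proteoglycans are a family of secreted matrix proteins. Of their genes, 10 were followed across the trunk and caudal regions of Ednrb-/- and wild-type mouse embryos, where Ednrb encodes endothelin receptor B. The members were Bgn, Dcn and Aspn (class I), Lum, Fmod, Kera, Prelp and Omd (class II) and Ogn and Epyc (class III). They were taken by gene symbol from a table of 56748 genes, and all 10 had a row. The family was chosen by earlier results from the same FPKM values, among them the low Ogn level of Ednrb-/- trunk, so the members' levels and differences are given as a description. No p-value is printed for a member, and where a member is said to be called, the word states only on which side of a threshold it lay in the fit across all genes and supports nothing about the family.

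RNA came from E11.5 embryos in 4 groups of 4 libraries: Ednrb-/- trunk, Ednrb+/+ trunk (WT below), Ednrb-/- caudal and WT caudal tissue. The receptor is needed by migrating pigment cell precursors, and the series asked how the tissue around those cells bears on where pigmented spots form. Which part of Ednrb was altered, the strain, the sex of the embryos and whether a library held 1 embryo or a pool are not stated by the labels. Nor do the labels give the litter or a stage finer than E11.5, so a difference in these between the genotypes was not tested. The libraries are described as biological replicates, and p-values set a group difference against the spread between them, pooled over the 4 groups. Nothing ties a trunk library to a caudal library of the same embryo, so the regions were treated as separate samples.

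The proteins consist of a core of leucine-rich repeats that binds collagen fibrils and steers how they assemble, and most members also carry sugar chains. Decorin (Dcn) and biglycan (Bgn) carry chondroitin or dermatan sulfate, whereas lumican (Lum), fibromodulin (Fmod) and keratocan (Kera) can carry keratan sulfate. Several members also bind growth factors of the TGF-beta family. In the embryo they are made mainly by mesenchymal cells, among them the precursors of dermis, tendon and the sheaths of muscle. Such mesenchyme is also part of the surroundings through which pigment cell precursors move.

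FPKM is sequenced fragments divided by gene length in kilobases and scaled by a factor for each library. Ednrb itself was 3.37 to 4.8 FPKM in Ednrb-/- trunk, against 35.8 to 41.8 FPKM in WT trunk. Caudal levels were 1.59 to 3.44 FPKM in Ednrb-/- and 26.2 to 33.5 FPKM in WT libraries. Depth lay between 34883821 and 43444905 reads per library. The posterior Hox genes checked, 9 of 9, were lower in trunk than in caudal tissue in either genotype, as the region labels say. Between genotypes, the fit across all genes called Hoxc12 and Hoxc13 lower and Hoxa13 and Hoxd13 higher in Ednrb-/- than in WT caudal tissue. Over all genes tested 19.9% were called lower and 21.7% higher there. None of the 9 was called between genotypes in trunk. In 3 libraries (Ednrb-/- trunk replicate 3, Ednrb-/- caudal replicate 3 and WT caudal replicate 2) the female transcript Xist and the Y-linked gene Ddx3y both reached 5 FPKM.

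Promoter sequences were taken from RefSeq (GRCm38.p6, from 250 bases before to 50 bases after the gene start) and matched 8 of the 10 members by symbol. Shown are 4 of them. Ogn and Kera had the largest falls in Ednrb-/- trunk, and Fmod and Bgn are abundant members with smaller differences between regions. Each runs in the direction of transcription, and capitals mark matches to TATAAA, searched on both strands, or to CANNTG, the E-box, which reads the same on both strands. Their positions are chr13:49607765-49608064 (Ogn), chr10:97606955-97607254 (Kera), chr1:134037004-134037303 (Fmod) and chrX:73483351-73483650 (Bgn), all on the plus strand.
Ogn: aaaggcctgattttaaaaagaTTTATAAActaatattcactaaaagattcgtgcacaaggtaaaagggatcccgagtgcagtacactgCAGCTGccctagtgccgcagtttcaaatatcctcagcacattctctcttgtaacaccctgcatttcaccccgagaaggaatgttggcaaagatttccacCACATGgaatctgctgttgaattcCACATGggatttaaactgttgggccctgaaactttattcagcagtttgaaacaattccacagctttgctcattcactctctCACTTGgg
Kera: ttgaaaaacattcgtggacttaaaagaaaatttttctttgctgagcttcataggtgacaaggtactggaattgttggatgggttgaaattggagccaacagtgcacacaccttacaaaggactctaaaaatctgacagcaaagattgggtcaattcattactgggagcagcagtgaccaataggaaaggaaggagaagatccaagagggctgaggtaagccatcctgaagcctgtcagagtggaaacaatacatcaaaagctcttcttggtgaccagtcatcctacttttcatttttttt
Fmod: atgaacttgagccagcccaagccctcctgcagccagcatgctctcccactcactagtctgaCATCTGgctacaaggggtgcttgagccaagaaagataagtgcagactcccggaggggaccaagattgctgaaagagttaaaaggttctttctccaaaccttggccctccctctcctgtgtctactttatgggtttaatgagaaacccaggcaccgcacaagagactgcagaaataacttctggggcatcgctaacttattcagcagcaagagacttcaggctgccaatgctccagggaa
Bgn: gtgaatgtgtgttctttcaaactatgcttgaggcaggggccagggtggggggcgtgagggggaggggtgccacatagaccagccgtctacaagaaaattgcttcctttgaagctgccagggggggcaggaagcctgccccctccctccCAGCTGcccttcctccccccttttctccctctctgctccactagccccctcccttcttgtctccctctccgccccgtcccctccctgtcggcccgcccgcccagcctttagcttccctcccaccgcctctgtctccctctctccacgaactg
The Ogn window held 2 TATAAA matches that overlap on opposite strands, 229 and 227 bases before the start. It also held 4 E-boxes, 162, 63 and 39 bases before and 42 bases after the start. The Kera window held neither motif, and those of Fmod and Bgn held 1 E-box each, 189 and 102 bases before the start. Among all 32851 promoters of the same length, 13.6% held TATAAA and 72.3% held CANNTG, with a median of 1 E-box. Base composition also varied, with 63.7% G and C in Bgn and 31.0% in Aspn, the extremes among the members, against a median of 52.7% over all promoters. The motifs were chosen after the genes' values were known, and a match is only a match of letters.

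The summed FPKM of the family, most of it Lum, Bgn and Fmod, was lower in Ednrb-/- tissue in either region. This sum was higher in trunk than in caudal tissue in either genotype. Some members with few reads went the other way. Aspn and Epyc had higher means in Ednrb-/- than in WT caudal tissue. Omd in WT and Aspn in Ednrb-/- embryos had lower means in trunk than in caudal tissue. The 10 genes together reached 37.3 ± 6.29 FPKM in Ednrb-/- trunk and 77.2 ± 7.44 FPKM in WT trunk (SD, n = 4 each). In caudal tissue the sum was 15.3 ± 1.77 FPKM in Ednrb-/- and 30.7 ± 2.93 FPKM in WT libraries. The Ednrb-/- sum was thus 48.3% of the WT sum in trunk and 49.9% in caudal tissue. In tissue RNA, fewer cells that make a transcript and less transcript per cell cannot be told apart.

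The make-up of that sum differed between regions and between genotypes. Lum made up 51.7% ± 1.6 of it in Ednrb-/- trunk and 47.4% ± 3.56 in WT trunk, but 31.1% ± 3.14 in Ednrb-/- caudal and 35.9% ± 4.56 in WT caudal tissue. Fmod took 13.8% and 14.9% of it in Ednrb-/- and WT trunk, and 26.9% and 28.8% in Ednrb-/- and WT caudal tissue. In either genotype, no trunk library reached the Fmod share of any caudal library. The share of Bgn was higher in Ednrb-/- tissue, at 19.0% to 24.3% in Ednrb-/- trunk against 14.6% to 16.0% in WT trunk. In caudal tissue the Bgn share was 31.5% to 37.3% in Ednrb-/- and 21.1% to 23.7% in WT libraries. That of Ogn was lower, at 2.82% ± 0.635 in Ednrb-/- trunk against 8.2% ± 0.619 in WT trunk, and at 1.49% ± 0.626 in Ednrb-/- caudal against 3.97% ± 0.492 in WT caudal tissue.

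**Figure D1:**
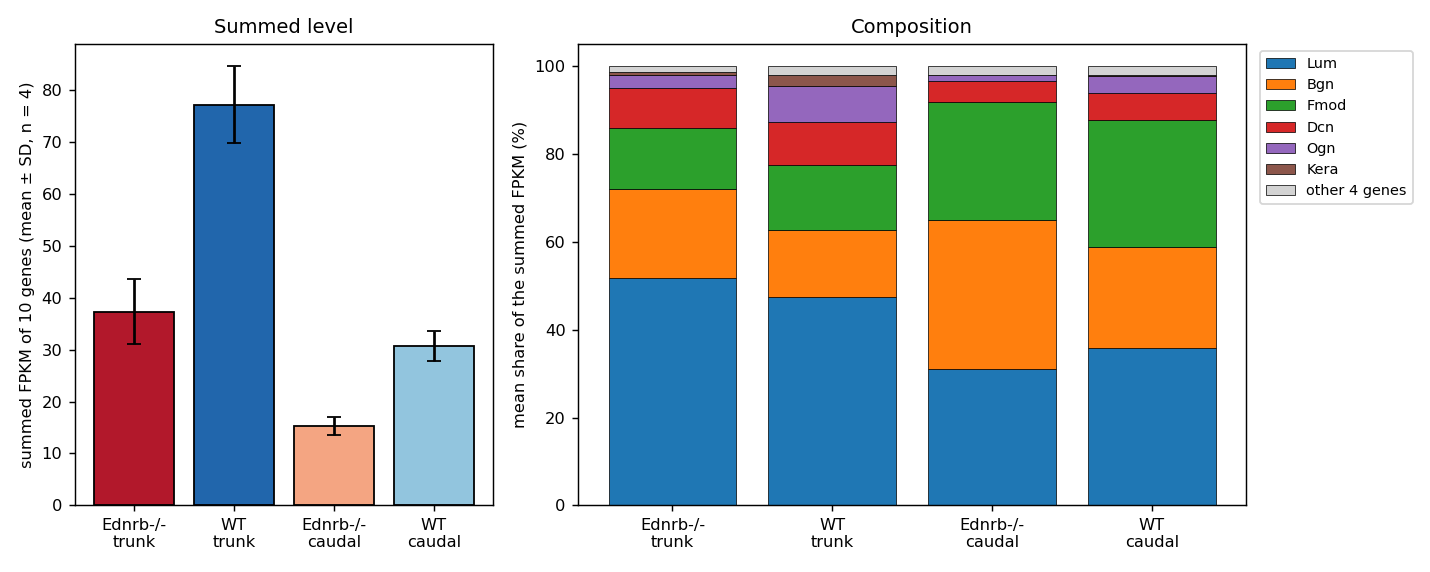
Summed FPKM of the 10 genes (left, mean ± SD, n = 4 libraries per group, linear axis from 0) and the mean share of each gene in that sum in percent (right). The sum was 37.3 FPKM in Ednrb-/- trunk against 77.2 FPKM in WT trunk, and 15.3 FPKM in Ednrb-/- caudal against 30.7 FPKM in WT caudal tissue, and the Fmod share was larger in the caudal bars.

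**Figure D2:**
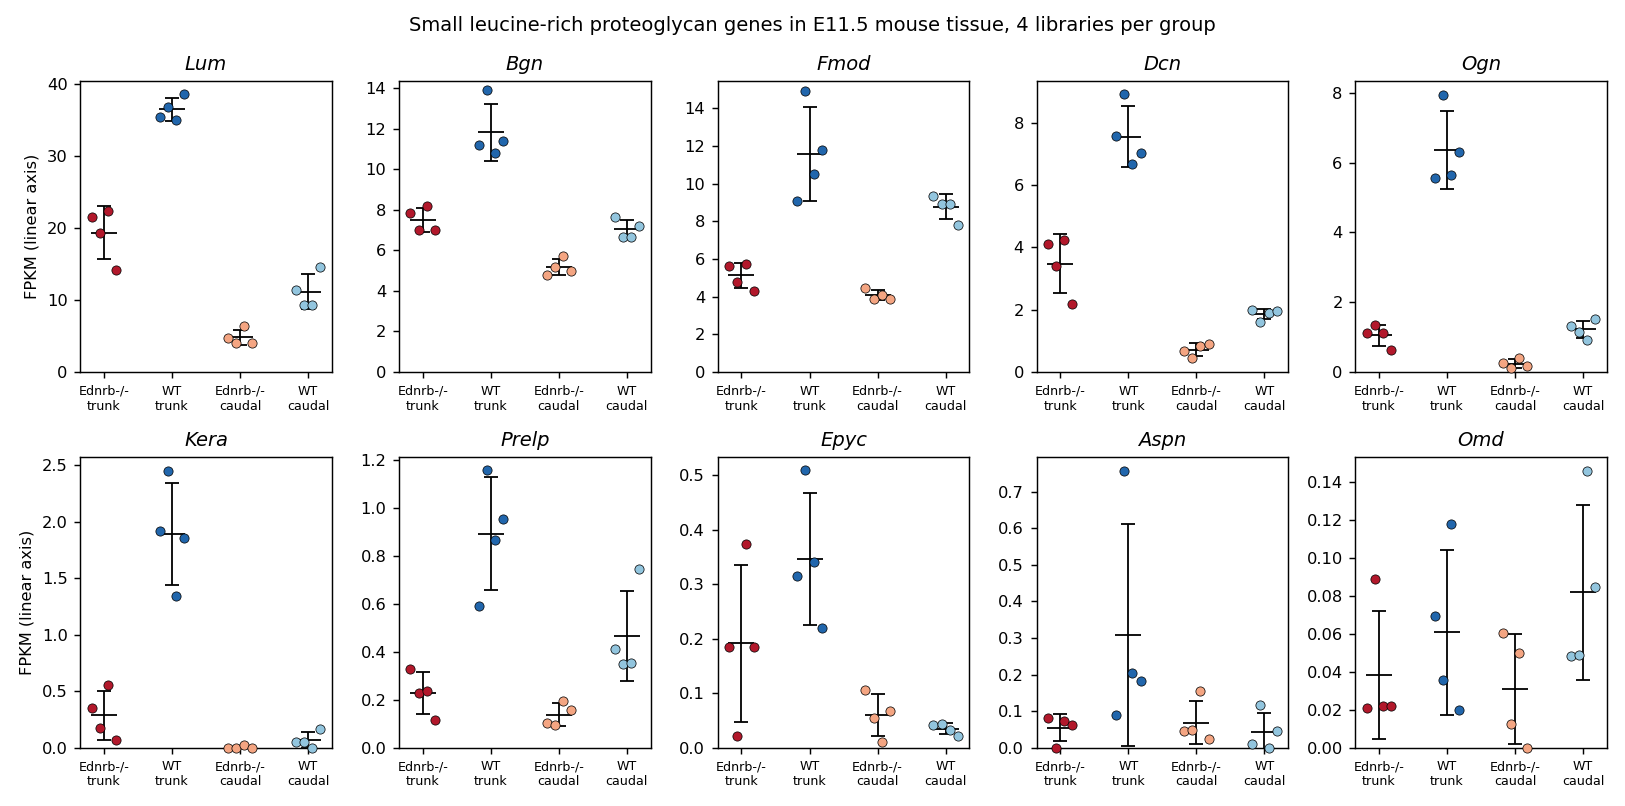
FPKM of each of the 10 genes in all 16 libraries (points), with the mean and SD of each group (bars), on linear axes that differ between panels. Lum, Bgn, Fmod, Dcn, Ogn and Prelp showed no overlap between Ednrb-/- and WT libraries of either region, and Omd overlapped between groups in every comparison.

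Among the class I genes, Dcn (ENSMUSG00000019929), whose protein limits the sideways growth of collagen fibrils and binds TGF-beta, read 4.11, 3.4, 4.24 and 2.18 FPKM in Ednrb-/- trunk, against 7.59, 8.92, 6.68 and 7.03 FPKM in WT trunk. Caudal values were 0.66, 0.451, 0.849 and 0.895 FPKM in Ednrb-/- and 1.99, 1.62, 1.89 and 1.97 FPKM in WT libraries. All 4 groups were separate, with WT trunk highest, then Ednrb-/- trunk, WT caudal and Ednrb-/- caudal tissue. On the log2(FPKM + 0.5) scale, the Ednrb-/- minus WT difference was -1.04 ± 0.16 (SE) in trunk and -0.98 ± 0.16 in caudal tissue.

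Bgn (ENSMUSG00000031375), the close relative of Dcn on chromosome X, had the smallest difference in trunk. It read 7.85, 6.99, 8.17 and 7.0 FPKM in Ednrb-/- trunk and 11.2, 13.9, 10.8 and 11.4 FPKM in WT trunk. In caudal tissue the values were 4.81, 5.18, 5.7 and 4.99 FPKM in Ednrb-/- and 7.64, 6.65, 6.64 and 7.2 FPKM in WT libraries. The genotypes did not overlap in either region, but Ednrb-/- trunk overlapped WT caudal tissue. The log2 difference was -0.62 ± 0.08 in trunk and -0.41 ± 0.08 in caudal tissue, that is, Ednrb-/- means at 63.4% and 73.5% of the WT means.

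Aspn (ENSMUSG00000021388), which encodes asporin, a binder of collagen and TGF-beta, was near the limit of detection. It had 0 to 8 reads per library in Ednrb-/- trunk, 8 to 67 in WT trunk, 2 to 13 in Ednrb-/- caudal and 0 to 10 in WT caudal tissue. In WT trunk, replicate 2 alone stood at 0.757 FPKM, and the other 3 at 0.0884 to 0.203 FPKM. The highest Ednrb-/- trunk library (0.0805 FPKM) lay just under the lowest WT trunk library (0.0884 FPKM), and the caudal groups overlapped. Caudal means were 0.0683 FPKM in Ednrb-/- and 0.0435 FPKM in WT libraries.

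Lum (ENSMUSG00000036446), the class II gene for lumican, a regulator of fibril spacing, was the most abundant member in every group except Ednrb-/- caudal tissue, where Bgn had the higher mean. It read 21.5, 19.3, 22.3 and 14.2 FPKM in Ednrb-/- trunk and 35.3, 36.7, 35.0 and 38.6 FPKM in WT trunk. Caudal libraries had 4.74, 4.07, 6.33 and 4.07 FPKM in Ednrb-/- and 11.4, 9.25, 9.36 and 14.5 FPKM in WT libraries. Every Ednrb-/- library lay below every WT library of its region, while the lowest Ednrb-/- trunk library (14.2 FPKM) fell just under the highest WT caudal library (14.5 FPKM). The log2 difference between genotypes was -0.92 ± 0.16 in trunk and -1.13 ± 0.16 in caudal tissue.

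Fmod (ENSMUSG00000041559), whose protein helps collagen fibrils mature and is typical of tendon, differed by genotype more than by region. Values were 5.64, 4.79, 5.76 and 4.33 FPKM in Ednrb-/- trunk against 9.07, 14.9, 10.5 and 11.8 FPKM in WT trunk, and 4.48, 3.88, 4.11 and 3.89 FPKM in Ednrb-/- caudal against 9.36, 8.94, 8.95 and 7.82 FPKM in WT caudal tissue. The 8 Ednrb-/- libraries all stood below the 8 WT libraries, whereas within a genotype the regions overlapped. The log2 difference between genotypes was -1.09 ± 0.12 in trunk and -1.01 ± 0.12 in caudal tissue.

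Kera (ENSMUSG00000019932), the keratocan gene, best known from the cornea, was detected mainly in WT trunk. It read 0.353, 0.175, 0.559 and 0.0652 FPKM in Ednrb-/- trunk (6 to 52 reads) and 1.92, 2.45, 1.34 and 1.85 FPKM in WT trunk (115 to 210 reads). Caudal libraries held 0, 0, 2 and 0 reads in Ednrb-/- and 4, 4, 0 and 14 reads in WT libraries. The trunk groups were separate and the caudal groups overlapped. Since a library at 0 allows up to 3 reads, a caudal difference was not detectable at this depth. The log2 difference was -1.62 ± 0.18 in trunk, and the Ednrb-/- mean was 15.3% of the WT mean there.

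Prelp (ENSMUSG00000041577), which encodes a heparin-binding member that anchors basement membranes to collagen, read 0.328, 0.229, 0.238 and 0.117 FPKM in Ednrb-/- trunk and 0.59, 1.16, 0.865 and 0.955 FPKM in WT trunk. In Ednrb-/- caudal tissue it read 0.105, 0.0939, 0.194 and 0.159 FPKM, against 0.413, 0.348, 0.355 and 0.744 FPKM in WT caudal tissue. As for Fmod, all 8 Ednrb-/- libraries lay below all 8 WT libraries. Ednrb-/- means were 25.5% of WT in trunk and 29.7% in caudal tissue, with log2 differences of -0.93 ± 0.15 and -0.58 ± 0.15 that the added 0.5 FPKM shrinks for so low a gene. Omd (ENSMUSG00000048368), osteomodulin of bone, had at most 12 reads in any library, and its groups overlapped in every comparison.

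Ogn (ENSMUSG00000021390), the class III gene for osteoglycin, also called mimecan, had the largest fall in Ednrb-/- trunk. It read 1.13, 1.35, 1.12 and 0.638 FPKM in Ednrb-/- trunk (66 to 122 reads), against 5.56, 7.95, 5.64 and 6.31 FPKM in WT trunk (546 to 767 reads). In caudal tissue it read 0.254, 0.11, 0.404 and 0.179 FPKM in Ednrb-/- (10 to 37 reads) and 1.31, 1.15, 0.927 and 1.51 FPKM in WT libraries (87 to 143 reads). Ednrb-/- trunk thus stood at the level of WT caudal tissue and overlapped it, with WT trunk well above both and Ednrb-/- caudal tissue below. The log2 difference was -2.15 ± 0.16 in trunk, the fourth lowest of 17205 genes tested, and -1.23 ± 0.16 in caudal tissue. The caudal value depends on the added 0.5 FPKM, and it reached -2.55 with voom, a weighting of the whole reads, where the trunk value was -2.67. Ednrb-/- means were 16.6% of WT in trunk and 19.3% in caudal tissue. Set against Dcn in the same library, Ogn was 0.307 ± 0.0608 of its FPKM in Ednrb-/- trunk and 0.841 ± 0.0768 in WT trunk, and 0.326 ± 0.127 in Ednrb-/- caudal and 0.658 ± 0.12 in WT caudal tissue.

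Epyc (ENSMUSG00000019936), the epiphycan gene of growth plate cartilage, had 2 to 39 reads per library in Ednrb-/- trunk, 25 to 49 in WT trunk, 1 to 10 in Ednrb-/- caudal and 2 to 4 in WT caudal tissue. The genotypes overlapped in both regions. Its mean was lower in Ednrb-/- than in WT trunk (0.191 and 0.346 FPKM) and higher in Ednrb-/- than in WT caudal tissue (0.0599 and 0.0346 FPKM).

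The fit across all genes (limma on log2(FPKM + 0.5)) covered 17205 genes, those that reached 0.5 FPKM in 4 or more libraries. Bgn, Dcn, Lum, Fmod, Kera, Prelp and Ogn passed this filter, and Aspn, Omd and Epyc did not. Kera passed it through the 4 WT trunk libraries and 1 Ednrb-/- trunk library, and Prelp through the 4 WT trunk libraries and 1 WT caudal library, so for both a difference was built into passing. In trunk, 7 of the 7 members tested were called lower in Ednrb-/- at an adjusted p under 0.05, beside 13.0% of all genes. In caudal tissue, 6 of 7 were called lower, all except Kera, beside 19.9% of all genes. Their median log2 difference was -1.04 in trunk, against 0.00402 over all genes tested, and -0.98 in caudal tissue, against 0.00678. Over all 10 members, 8 were lower in Ednrb-/- trunk without overlap, where 14.2% of all genes tested were, and 6 in Ednrb-/- caudal tissue, where 18.2% were. The 8 include Aspn, which was below the filter that the genes behind these shares passed. Nothing is read from these shares, because the family was picked with the genotype results known.

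**Figure D3:**
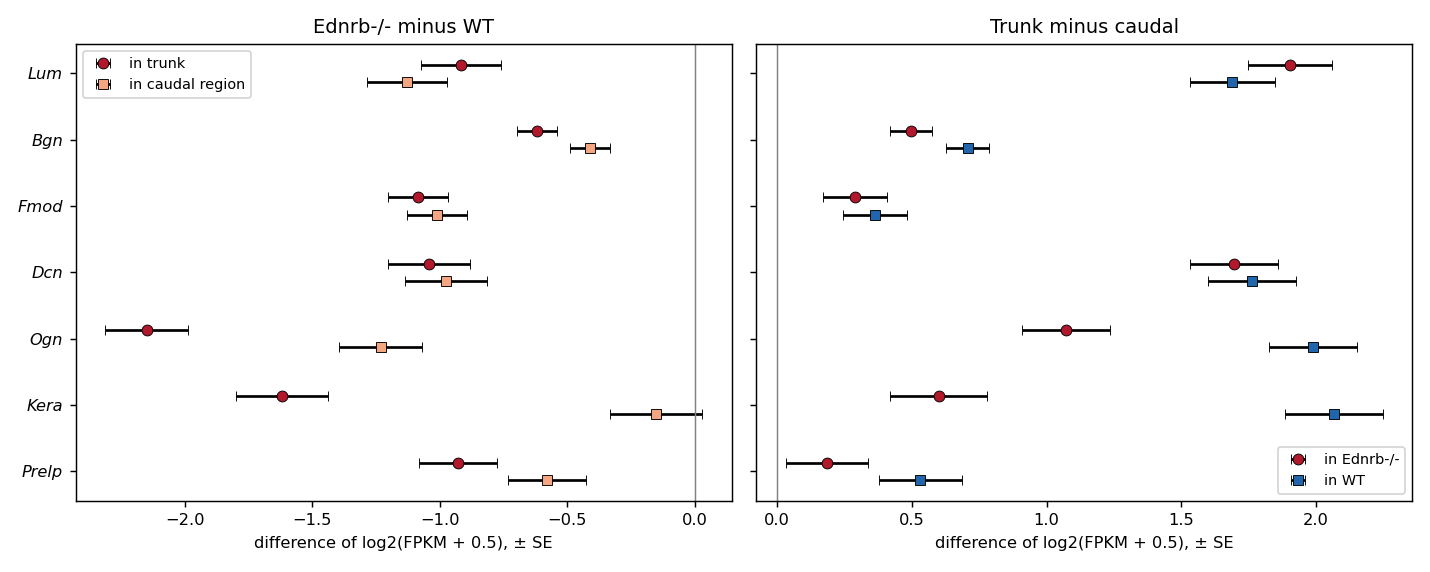
Differences of log2(FPKM + 0.5) ± SE from the limma fit for the 7 members above the filter, Ednrb-/- minus WT (left) and trunk minus caudal (right). In trunk Ogn stood lowest at -2.15, followed by Kera at -1.62, while Lum and Dcn had trunk minus caudal differences of 1.69 to 1.90 in either genotype.

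The genotype difference of Ogn was larger in trunk than in caudal tissue on the log2(FPKM + 0.5) scale, but not clearly so on linear means. The interaction term (the trunk difference minus the caudal difference) was -0.92 ± 0.23 for Ogn and -1.47 ± 0.26 for Kera, and it lay past the threshold for these 2 of 7 members, beside 2.98% of all genes. This is no test of either gene, because the Ogn level of Ednrb-/- trunk bore on the choice of the family, and Kera passed the filter through trunk libraries and had 0 to 14 reads per library in caudal tissue. With an added 0.1 FPKM the Ogn value was -0.48 and with voom it was -0.12, and the Kera values were -1.96 and -0.82, none of them past the threshold. The Ogn value also fell short of it without Ednrb-/- trunk replicate 1 (-0.95) or WT trunk replicate 2 (-0.81), and without the 3 libraries with Xist and Ddx3y (-0.82). Lum had 0.21 ± 0.22 and Dcn -0.07 ± 0.23, neither called.

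Between regions, Dcn, Lum and Ogn were several-fold higher in trunk in either genotype. In Ednrb-/- embryos 5 of 7 members were called higher in trunk than in caudal tissue, beside 17.3% of all genes, and in WT embryos 7 of 7 were, beside 9.69%. In Ednrb-/- embryos the log2 differences were 1.90 ± 0.16 for Lum, 1.70 ± 0.16 for Dcn, 1.07 ± 0.16 for Ogn and 0.60 ± 0.18 for Kera. In WT embryos the log2 differences were 1.99 ± 0.16 for Ogn, 1.76 ± 0.16 for Dcn and 1.69 ± 0.16 for Lum. That of Kera was 2.07 ± 0.18, a difference that its passing of the filter through trunk libraries had fixed in direction. As ratios of mean FPKM, trunk over caudal tissue, Dcn was at 4.88 in Ednrb-/- and 4.05 in WT embryos, and Ogn at 4.46 in Ednrb-/- and 5.19 in WT embryos. Bgn was higher in trunk by 0.50 ± 0.08 in Ednrb-/- and 0.71 ± 0.08 in WT embryos. Fmod (0.29 ± 0.12 in Ednrb-/-, not called, and 0.36 ± 0.12 in WT) and Prelp (0.19 ± 0.15 in Ednrb-/-, not called, and 0.53 ± 0.15 in WT) differed least. The WT call of Fmod was lost in 17 of 30 alternative settings, among them leaving out any 1 of the WT caudal libraries or WT trunk replicate 2 (0.24 without it), 3 or 4. The WT call of Prelp was lost in 9 of 29, among them leaving out WT trunk replicate 2, 3 or 4 or WT caudal replicate 1, 2 or 3 (0.44 to 0.54). That of Kera in Ednrb-/- embryos was lost without Ednrb-/- trunk replicate 1 (0.55) or 3 (0.44). Leaving out the 3 libraries with both Xist and Ddx3y RNA took away all 3 of these calls, but no genotype call of a member. Without overlap, 5 of 10 members were higher in trunk in Ednrb-/- embryos, where 17.0% of all genes tested were, and 6 of 10 in WT embryos, where 11.0% were. The 6 include Epyc, which was below the filter.

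The 7 members above the filter varied together. Over 16 libraries the 21 pairs had Pearson correlations of log2 FPKM between 0.698 and 0.983, which largely reflect the differences between groups. Deviations from the group means, which do not, correlated between 0.243 and 0.799 with a median of 0.606. Ednrb-/- trunk replicate 4 was the lowest of its group for Dcn, Lum, Fmod, Kera, Prelp and Ogn, and WT trunk replicate 2 the highest of its group for Bgn, Dcn, Fmod, Kera, Prelp and Ogn. The correlations are descriptions over libraries that share their groups.

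Of 13358 protein-coding genes, the ones whose levels ran most like Ogn were Mmd2 (r = 0.988 over 16 libraries), Musk, the muscle receptor kinase of the neuromuscular junction (0.985), Adgrb2, Nod1 and Mb, the myoglobin gene. Those most like Dcn were Itm2a (0.991), Srl, Cd1d1, Bmp5 and Lgr5, and those most like Lum were Mpped2 (0.987), Itm2a, Ptprt, Myh8, a muscle myosin heavy chain, and Ppfia4. Musk had 0.43 FPKM in Ednrb-/- trunk, 1.37 in WT trunk, 0.0719 in Ednrb-/- caudal and 0.404 in WT caudal tissue. The means of Musk, Mmd2 and Mb passed the 0.5 FPKM of the filter in WT trunk alone, where Ogn was highest. Passing the filter thus favoured their likeness to Ogn. Fmod ran most like Emp1 (0.98), Nr3c1, the glucocorticoid receptor gene, Mdga1, Csf2ra and Col8a1. Bgn ran most like Cdh13 (0.986), Thbs2, Kcnn3, Col6a1 and Musk. Kera ran most like Zpld1 (0.968), 1520401A03Rik, Fbln5, an elastic fibre gene, Map3k5 and Ppp1r3c. The mean of 1520401A03Rik also passed 0.5 FPKM in WT trunk alone. Prelp, the lowest of the 7 by its highest group mean, ran most like Arhgef3 (0.979), Wwp2, Nfix, Rac3 and Matn4, a cartilage matrix gene (0.969).

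In the genome (mm39) most members sit in clusters. Dcn, Lum, Kera and Epyc lie in that order on chromosome 10 within 202846 bases, all on the plus strand, from Dcn (97315471 to 97354005) to Epyc (97479930 to 97518316). Aspn, Omd and Ogn follow Ecm2, another leucine-rich matrix gene, on chromosome 13, where Ogn spans 49761522 to 49777977 on the plus strand. Prelp (133838042 to 133849152, minus strand) and Fmod (133964992 to 133976015, plus strand) lie 115839 bases apart on chromosome 1. Bgn spans 72527208 to 72539539 on the plus strand of chromosome X. Within a cluster the levels differed widely, since in WT trunk Lum stood at 36.4 ± 1.65 FPKM and Kera, 34175 bases away, at 1.89 ± 0.455 FPKM. Likewise Ogn stood at 6.36 ± 1.11 FPKM in WT trunk and Omd, 15223 bases away, at 0.0607 ± 0.0433 FPKM.

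Other protein-coding genes near the members moved in both directions. Of 16 such genes within 200 kb that passed the filter, chosen after values were seen, 5 were lower and 2 higher in Ednrb-/- trunk, and 6 lower and 7 higher in Ednrb-/- caudal tissue (limma, adjusted p under 0.05). Of all genes tested 12.2% were called higher in Ednrb-/- trunk and 21.7% in Ednrb-/- caudal tissue, beside the shares called lower given above. Adora1 was among those lower in both regions. It averaged 0.364 FPKM in Ednrb-/- trunk, 0.786 in WT trunk, 0.177 in Ednrb-/- caudal and 0.379 in WT caudal tissue. Only its WT trunk mean passed the 0.5 FPKM of the filter, which favours a fall in trunk. Cenpp, a centromere protein gene on the opposite strand whose span contains Aspn, Omd and Ogn, had 4.3 ± 0.419 FPKM in Ednrb-/- trunk and 3.8 ± 0.369 FPKM in WT trunk. Its log2 difference was 0.16 ± 0.09 in trunk (limma adjusted p = 0.243) and 0.27 ± 0.09 in caudal tissue (adjusted p = 0.0325). Whether reads were counted by strand is not stated, so reads of Ogn and Cenpp in shared stretches cannot be told apart. The same holds for Prelp and Epyc and the noncoding genes opposite them, Gm15851 and Gm10754, which stood at 0.0206 FPKM or less in every group mean. Near Fmod, Btg2 differed by -0.18 ± 0.08 in trunk (adjusted p = 0.134) and -0.08 ± 0.08 in caudal tissue (adjusted p = 0.483), neither called. Mybph, a myosin-binding protein gene farther along, fell by 0.44 ± 0.09 in trunk (adjusted p = 0.00307) and by 1.08 ± 0.09 in caudal tissue (adjusted p = 2.13e-06). On chromosome X, Dusp9, a MAP kinase phosphatase gene near Bgn, rose by 0.99 ± 0.15 in trunk (adjusted p = 0.000389) and by 1.16 ± 0.15 in caudal tissue (adjusted p = 4.29e-05).

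**Figure D4:**
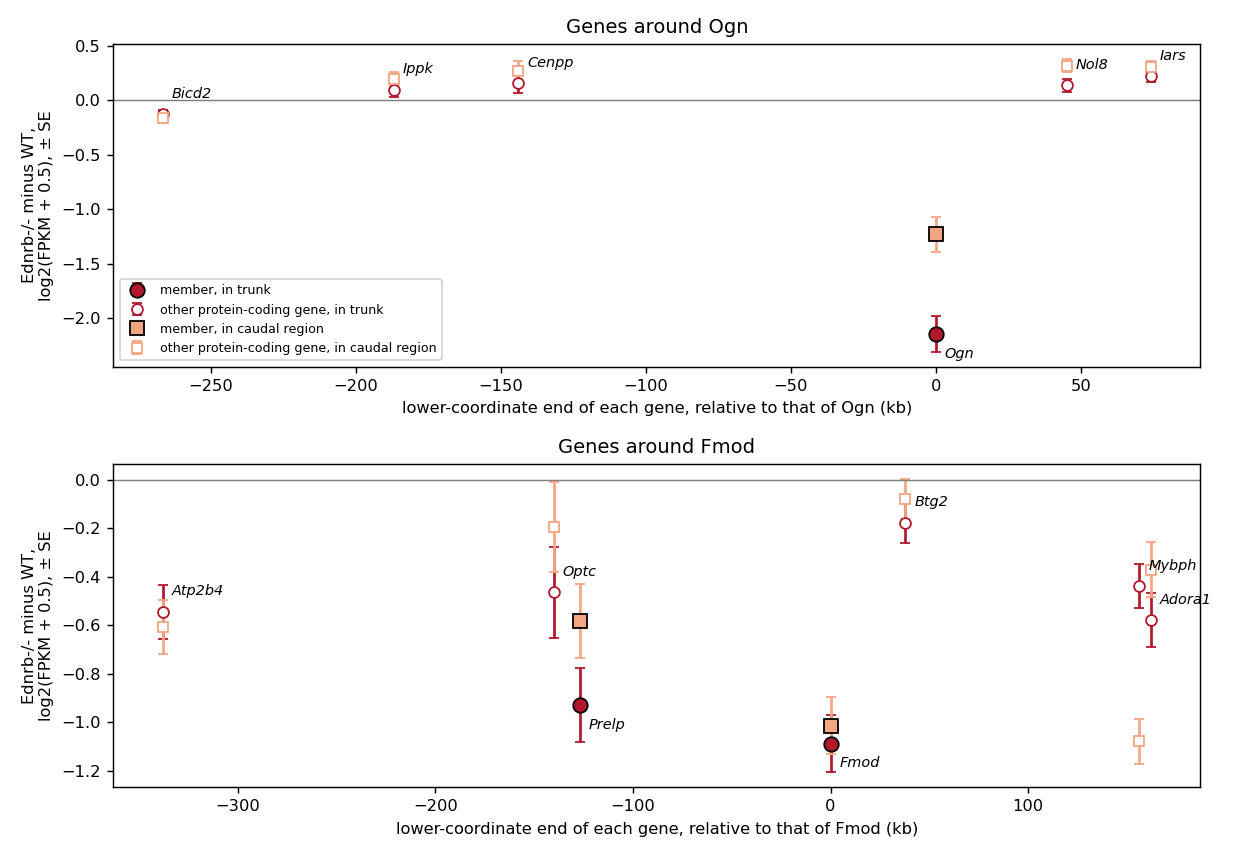
Ednrb-/- minus WT differences of log2(FPKM + 0.5) ± SE in trunk (circles) and caudal tissue (squares) for members (filled) and other protein-coding genes above the filter (open), by distance in kb from Ogn (top) or Fmod (bottom). Around Ogn, at -2.15 in trunk, the 5 other genes lay between -0.17 and 0.32 in either region. Around Fmod all lay below 0, though Btg2 and Optc were called in neither region.

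The collagens that these proteins bind were lower with them. Like the lists that follow, this one was chosen with earlier results of these data known, so its counts and p-values are a description. Of 13 collagens of fibrils and their surface tested, 12 fell in Ednrb-/- trunk and 13 in Ednrb-/- caudal tissue (limma, Benjamini-Hochberg adjusted p under 0.05), beside 13.0% and 19.9% of all genes. Their median log2 differences were -0.758 in trunk and -0.867 in caudal tissue. Col6a3, a chain of the beaded collagen VI filament that biglycan and decorin bind, averaged 2.72 ± 0.594 FPKM in Ednrb-/- trunk and 6.92 ± 1.08 FPKM in WT trunk (SD, n = 4 each; log2 -1.21 ± 0.17, adjusted p = 0.000149). In caudal tissue it averaged 0.819 ± 0.307 FPKM in Ednrb-/- and 4.03 ± 0.564 FPKM in WT libraries (-1.80 ± 0.17, adjusted p = 3.25e-06). Col6a1 fell by 1.24 in both regions, and Col14a1, a collagen of the fibril surface, by 0.97 in trunk and 1.08 in caudal tissue. In trunk Col2a1, the cartilage collagen, stood at -0.24 ± 0.10 (adjusted p = 0.103). As a ratio to Col1a1 within a library, Lum was 0.793 ± 0.172 in Ednrb-/- trunk and 0.881 ± 0.157 in WT trunk, and 0.325 ± 0.0352 in Ednrb-/- caudal and 0.409 ± 0.0641 in WT caudal tissue. In either region the ranges of the genotypes overlapped.

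Genes that cross-link and trim collagen changed in part. In trunk 5 of 11 fell and 1 rose, and in caudal tissue 5 of 11 fell. Over all genes the shares called lower were 13.0% in trunk and 19.9% in caudal tissue, and those called higher 12.2% and 21.7%. Lox, the lysyl oxidase that cross-links collagen, averaged 2.03 ± 0.339 FPKM in Ednrb-/- trunk and 5.14 ± 0.845 FPKM in WT trunk (log2 -1.16 ± 0.20, limma adjusted p = 0.000806). It fell by 1.09 ± 0.20 in caudal tissue (adjusted p = 0.000506). Adamts2, counted among the falls in trunk, and Loxl4, counted in caudal tissue, passed the filter mainly through WT libraries. Loxl3 fell by 0.55 in trunk and 0.48 in caudal tissue, and Bmp1, the protease that trims procollagens and some members, by 0.37 and 0.44. Loxl2 rose by 0.29 ± 0.06 in trunk (adjusted p = 0.0023) and stood at 0.11 in caudal tissue (adjusted p = 0.139).

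The enzymes that start the sugar chains were close to WT levels. None of the 6 genes for the linker that joins a chain to the core protein was called in either genotype comparison by limma, and at an unadjusted p under 0.05 B4galt7 passed in trunk. Xylt1, the xylosyltransferase of the first step, averaged 1.91 ± 0.103 FPKM in Ednrb-/- trunk and 1.85 ± 0.181 FPKM in WT trunk. Of 15 chondroitin and dermatan sulfate enzymes tested, 6 fell in trunk and 7 in caudal tissue, and none rose, beside the same 13.0% and 19.9% lower over all genes. Chsy3, a chondroitin synthase, fell by 0.40 ± 0.10 in trunk (adjusted p = 0.0096) and by 0.58 ± 0.10 in caudal tissue (adjusted p = 0.000359), and Dsel, a dermatan sulfate epimerase, by 0.39 and 0.25. In trunk Csgalnact1, which begins the chondroitin chain, fell by 0.54 ± 0.11 (adjusted p = 0.00217), against -0.08 in caudal tissue (adjusted p = 0.612). Chsy3 and Csgalnact1 reached the 0.5 FPKM of the filter in 2 Ednrb-/- libraries each and otherwise in WT libraries, which favours a fall among the genes tested. Of 4 keratan sulfate enzymes tested, 2 fell in trunk (B4galt4 by 0.29 and Chst1 by 0.30) and 1 in caudal tissue (Chst5 by 0.45), where 19.9% of all genes were lower. The trunk call of Chst1 was lost in 9 of 30 alternative settings, among them leaving out any 1 of Ednrb-/- trunk replicates 1, 3 and 4 and WT trunk replicates 2, 3 and 4 (-0.24 to -0.30).

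Of 11 growth factors and receptors known to bind members, 4 fell and 2 rose in trunk, beside 13.0% and 12.2% of all genes. In caudal tissue 6 fell and 2 rose, beside 19.9% and 21.7%, so the rises were near the share over all genes. Egfr, the EGF receptor, which decorin binds, averaged 1.26 ± 0.284 FPKM in Ednrb-/- trunk and 2.91 ± 0.17 FPKM in WT trunk (log2 -0.97 ± 0.12, limma adjusted p = 5.79e-05). It fell by 0.74 ± 0.12 in caudal tissue (adjusted p = 0.000142). Tgfb3 fell by 0.71 in trunk and 0.51 in caudal tissue, Tgfb2 by 0.44 and 0.85, and the TGF-beta receptor gene Tgfbr2 by 0.44 and 0.45. Of 6 proteases able to cut members, Adamts5 (-0.45) and Adamts9 (-0.53) fell in trunk, and Adamts1 rose by 0.46 in caudal tissue. The other small leucine-rich proteins gave no call by limma among 4 tested in either region, with Optc in trunk at an unadjusted p under 0.05. Tsku, the tsukushi gene, averaged 5.75 ± 0.334 FPKM in Ednrb-/- trunk and 5.63 ± 0.484 FPKM in WT trunk. The median log2 differences of these lists were smaller than those of the collagens. In trunk they were -0.143 for cross-linking genes, -0.053 for linker enzymes, -0.186 for chondroitin and dermatan sulfate enzymes, -0.252 for keratan sulfate enzymes, -0.0546 for growth factors and receptors, -0.155 for proteases and -0.14 for the other small leucine-rich proteins. In the same order, they were -0.0262, 0.029, -0.157, 0.087, -0.178, -0.0869 and -0.123 in caudal tissue, where the keratan sulfate list had its median above 0 and its 1 call below.

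Markers of the cell types that the tissue could hold moved unevenly. Their counts stand beside 13.0% of all genes called lower and 12.2% higher in Ednrb-/- trunk. In Ednrb-/- caudal tissue these shares were 19.9% and 21.7%. The 7 markers of connective tissue mesenchyme summed to 143 to 153 FPKM in Ednrb-/- trunk and 140 to 160 FPKM in WT trunk, and to 156 to 168 FPKM in Ednrb-/- caudal and 137 to 175 FPKM in WT caudal tissue. Of these 7, Twist2 alone fell in trunk (-0.41, limma adjusted p = 0.0133), and Meox2 alone rose in caudal tissue (0.17, adjusted p = 0.0162). The 4 tendon markers summed to 7.14 to 9 FPKM in Ednrb-/- trunk and 12.1 to 15.5 FPKM in WT trunk, and to 2.78 to 4.91 FPKM in Ednrb-/- caudal and 4.95 to 7.99 FPKM in WT caudal tissue. Of them Scx and Thbs4 fell in trunk and Scx and Mkx in caudal tissue. In trunk Mkx, not called, averaged 2.24 FPKM in Ednrb-/- and 1.96 FPKM in WT libraries. Tnmd was also lower in Ednrb-/- trunk (0.176 ± 0.11 FPKM, against 0.69 ± 0.0693 FPKM in WT trunk), but it passed the filter through the 4 WT trunk libraries alone, so this was built in.

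The 5 skeletal muscle markers summed to 205 to 219 FPKM in Ednrb-/- trunk and 282 to 358 FPKM in WT trunk, and to 69.2 to 92.2 FPKM in Ednrb-/- caudal and 164 to 176 FPKM in WT caudal tissue. Of them 4 fell in each region and Myf5, an early muscle factor, rose by 1.26 in trunk. Macrophage markers, 4 of 4, fell in both regions. Neuron markers, 4 of 4, fell in caudal tissue, to sums of 88.3 to 169 FPKM in Ednrb-/- against 222 to 313 FPKM in WT libraries. The hindlimb genes Tbx4 and Pitx1 rose in caudal tissue, to sums of 15.3 to 22.7 FPKM in Ednrb-/- against 2.21 to 14.3 FPKM in WT libraries. No marker of these 6 lists was at 0 in all libraries of a group.

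Cartilage markers summed to 25.1 to 27.5 FPKM in Ednrb-/- trunk and 22.4 to 32.4 FPKM in WT trunk, and to 20.2 to 25.8 FPKM in Ednrb-/- caudal and 30.9 to 34.2 FPKM in WT caudal tissue. Most of that sum was Sox9, which averaged 25.9 FPKM in Ednrb-/- trunk and 25.8 FPKM in WT trunk. Among the cartilage matrix genes Matn4 differed by -1.81 ± 0.23 in trunk (limma adjusted p = 7.84e-05) and -1.02 ± 0.23 in caudal tissue (adjusted p = 0.00206), and Acan by -0.80 ± 0.14 (adjusted p = 0.000751) and -0.53 ± 0.14 (adjusted p = 0.0057). Both passed the filter through WT libraries alone, so a lower Ednrb-/- level was built in. Of 6 cartilage markers 3 were tested, of which 2 fell in trunk and 3 in caudal tissue. Matn1 was at 0 throughout Ednrb-/- trunk, and Snorc throughout Ednrb-/- caudal tissue. For neither did a group mean exceed 0.0645 FPKM, in WT or Ednrb-/- tissue, so these zeros do not mark the genotype.

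Surface ectoderm markers summed to 14.6 to 17.5 FPKM in Ednrb-/- trunk and 23.2 to 30.7 FPKM in WT trunk, and to 23.8 to 31.6 FPKM in Ednrb-/- caudal and 23.4 to 33.8 FPKM in WT caudal tissue. In both regions the keratin genes Krt5 (by 1.15 in trunk and 0.96 in caudal tissue) and Krt14 (by 1.35 and 1.45) fell, and Krt8 rose (by 0.53 and 1.05). Trp63 was called in neither region. Of 2 bone markers tested, Runx2, which passed the filter through 7 WT libraries and 1 Ednrb-/- library, fell by 1.04 in trunk and 0.72 in caudal tissue, and Alpl rose by 0.44 and 0.49. Bone marker sums were 1.93 to 3.04 FPKM in Ednrb-/- trunk and 2.54 to 3.02 FPKM in WT trunk, and 2.36 to 2.73 FPKM in Ednrb-/- caudal and 1.98 to 2.78 FPKM in WT caudal tissue. Mesothelium markers Wt1 and Upk3b rose by 1.25 and 1.08 in caudal tissue, where Upk1b fell by 0.79, and none of 3 tested was called in trunk. Their sums were 9.92 to 11.7 FPKM in Ednrb-/- trunk and 4.52 to 9.6 FPKM in WT trunk, and 5.35 to 6.62 FPKM in Ednrb-/- caudal and 2.62 to 5.99 FPKM in WT caudal tissue. Of 4 endothelium markers 2 rose in trunk and 3 in caudal tissue, by 0.20 to 0.29. Of 4 erythroid markers 1 fell and 1 rose in each region. In caudal tissue the globin gene Hbb-y fell (-0.59) and the globin gene Hbb-bh1 rose (0.82). In trunk Hbb-y averaged 2090 FPKM in Ednrb-/- and 3470 FPKM in WT libraries, and Hbb-bh1 896 and 670 FPKM. Of 3 forelimb and trunk genes Tbx5 rose in caudal tissue. The part of all these markers in the members' differences was not tested.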

How the data were processed

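Total RNA was sequenced from 16 libraries in 4 groups, assigned from their titles. Per the submitters' processing notes the authors ran fastp, aligned with HISAT2 2.0.5 to mm39 and counted with featureCounts 1.5.0-p3. Annotation release and strand setting are not stated. The authors deposited FPKM in 1 table, per the file headers. FPKM times gene length gave whole reads for 100% of values within 0.01, which served for depth and for voom. At 34883821 to 43444905 reads per library, counting error matters mainly for genes with few reads. Pairs of libraries within a group differed beyond sampling noise.

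The main test was limma 3.58.1 (R 4.3.3) of log2(FPKM + 0.5), fitted to the means of 4 groups with trended empirical Bayes and Benjamini-Hochberg adjustment over 17205 genes with at least 0.5 FPKM in 4 libraries, called at an adjusted p under 0.05. The added 0.5 understates the change of low genes. The fit was also run on simulated data, in which the genes given a change were not low ones and the spread was set in advance. That run therefore does not bear on low genes and is no check of the spread in these libraries. All 10 members are named. Of each related list up to 3 genes of lowest adjusted p per genotype comparison are named, with Xylt1, Loxl2, Col2a1 and some markers added after values were seen. Likeness names the 5 protein-coding genes of highest correlation. The members and all lists were chosen with earlier results of these data known. Python 3.11.15 and matplotlib 3.10.9 made the figures. The alternatives were other pseudocounts, filters, scalings, weights, covariates, voom and left-out libraries.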

Additional observations from a re-analysis of the deposited data

Results flagged for a closer look

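In groups of 4 libraries, a library set apart from the other 3 was flagged in 4 of the 40 member and group pairs. For normally distributed values chance gives about 1 in 20, but the rate for genes with few reads is not known. Aspn stood at 0.757 FPKM (67 reads) in WT trunk replicate 2. Kera stood at 0.0246 FPKM (2 reads) in Ednrb-/- caudal replicate 3, with the other 3 libraries at 0. As a library at 0 allows up to 3 reads, this Kera library is not distinct from them. Prelp stood at 0.744 FPKM (99 reads) in WT caudal replicate 4. Omd stood at 0.0888 FPKM (7 reads) in Ednrb-/- trunk replicate 2.

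The limma interaction term, the trunk difference between genotypes minus the caudal one on the log2(FPKM + 0.5) scale, lay past the threshold at -1.47 for Kera and -0.92 for Ogn. Neither did so with 0.1 FPKM added or with voom. On linear means Ednrb-/- was 16.6% of WT in trunk and 19.3% in caudal tissue for Ogn. For Kera a caudal difference was not detectable, and Ogn bore on the choice of the family, so the difference between regions is not established for either gene.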

How the results depend on the processing

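Of 30 alternative settings, none turned the direction of a called member. The number of members called lower in Ednrb-/- stayed at 6 to 7 in trunk and 5 to 6 in caudal tissue, and the number called higher in trunk at 4 to 6 in Ednrb-/- and 5 to 7 in WT embryos. The interaction was called for 2 members in the main fit, but for 0 with a pseudocount of 0.1, 1 without the filter, 0 with voom and 1 without the 3 libraries with Xist and Ddx3y. It was called for 1 to 2 when single libraries were left out, 1 without Ednrb-/- trunk replicate 1 or WT trunk replicate 2, and the call lost was that of Ogn (-0.95 and -0.81). Sizes of low genes depended on the pseudocount and on voom: the caudal genotype difference of Ogn ran between -0.85 and -2.55, of Prelp between -0.36 and -1.78, of Dcn between -0.75 and -1.50, and the trunk one of Kera between -1.17 and -3.06 and of Prelp between -0.62 and -2.04. Prelp between regions in Ednrb-/- embryos, not called, changed sign after quantile normalization (-0.018).

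Scaling shifted the median of all genes by 0.0878 at most. The deposited scaling is not by the sum of listed reads. Using that sum shifted the median of the caudal genotype comparison by -0.0579, and median-of-ratios scaling by 0.0002. Of genes called, 47.9% were lower in Ednrb-/- caudal tissue as deposited, against 69.4% after TPM scaling, 62.0% with listed reads as the total and 62.7% with voom (4430 lower, 2630 higher). In trunk the share was 51.6% as deposited, 62.5% with listed reads and 62.9% with voom. Lower in trunk than in caudal tissue of Ednrb-/- embryos were 52.2% as deposited and 33.0% after TPM scaling. For the interaction it was 44.1% as deposited, 20.9% after TPM scaling and 27.4% with voom.

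The labels do not say whether replicate numbers pair the libraries. Same-numbered deviations correlated between -0.0836 and 0.109, with 1 of 24 pairs over 0.1. Weak correlations of this kind cannot decide whether same-numbered libraries share embryos. With the replicate block, 7 members were called lower in Ednrb-/- trunk, 6 in Ednrb-/- caudal tissue, 5 and 6 higher in trunk in Ednrb-/- and WT embryos, and 2 in the interaction. Depth limits Aspn, Omd, Epyc and, in caudal tissue, Kera.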
